A study of Mus musculus with 64 samples.

Results

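The comparison set livers with a knockdown of Acsf3 against control livers at zeitgeber time (ZT) 0, the moment of lights on. Its members are the 8 libraries labelled ZT0, 4 from sh-Acsf3 and 4 from sh-Ctl, out of 64 libraries in the series, chosen by treatment and time label alone. The mice were male C57BL/6J fed ad libitum, and livers were taken 4 weeks after injection of an AAV8 vector that carried the hairpin sh-Acsf3, with sh-Ctl as the control. The knockdown is described as liver-specific. The promoter of the hairpin, the age of the mice and the content of the control vector are not given in the sources used here, and no group without a vector is among these samples. The same comparison at ZT3, 6, 9, 12, 15, 18 and 21 served as the reference for what differed at ZT0.

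ACSF3 is a mitochondrial acyl-CoA synthetase that joins malonate to coenzyme A. The malonyl-CoA it makes inside the mitochondrion feeds mitochondrial fatty acid synthesis, which supplies the lipoyl group of the pyruvate and 2-oxoglutarate dehydrogenase complexes, and is a donor for malonylation of lysines on mitochondrial proteins. In liver the surrounding metabolism follows the daily cycle of feeding, and lights on closes the active and feeding phase of a mouse.

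The ZT0 libraries held 1.87 to 3.23 M unique molecular identifiers (UMIs, each a counted transcript molecule) in sh-Ctl and 1.64 to 9.35 M in sh-Acsf3. The share of mitochondrially encoded counts was 17.3 to 22.4% in sh-Ctl and 18.2 to 24.9% in sh-Acsf3, with an exact two-sided permutation p of 0.543, adjusted to 0.814 over 3 library properties, where 0.0286 is the smallest p that 4 against 4 can give. Genes detected numbered 13064 to 14233 in sh-Ctl and 13471 to 16276 in sh-Acsf3 (exact permutation p = 0.371, adjusted 0.814). Levels are given as CPM, counts scaled to a library of 1 M UMIs with library sizes corrected by TMM, and 1 UMI was worth between 0.113 and 0.583 CPM, so genes near 1 CPM rest on few molecules. A pair of sh-Acsf3 libraries stood apart. In replicate 1 the summed level of 28 exocrine pancreas genes was 3574 CPM, against 10.8 to 26.7 CPM in the other 7 libraries, and Ctrb1, which encodes the digestive enzyme chymotrypsinogen B, lay at 552 CPM against at most 2.51. Replicate 3 was the library with 9.35 M UMIs and 24.9% mitochondrial counts, and its level of mt-Rnr1, the small mitochondrial ribosomal RNA, was 61078 CPM against 15270 to 20677 in the other libraries. The labels do not say whether replicates are separate animals, so p-values measure the spread between these samples, which may be in part technical.

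Acsf3 itself was the check of the labels. It was measured at 13.4, 13.2, 12.8 and 10.5 CPM in sh-Ctl replicates 1 to 4 and at 1.47, 0.733, 1.13 and 3.403 CPM in sh-Acsf3 replicates 1 to 4. Every sh-Acsf3 library lay below every sh-Ctl library. On the log2 scale sh-Acsf3 minus sh-Ctl came to -3.11 ± 0.39 (estimate and SE, as for all differences given here), and edgeR gave an adjusted p of 2.86e-07. The sh-Ctl libraries held 126 of its UMIs and the sh-Acsf3 libraries 21. The gene (ENSMUSG00000015016) spans 122775486 to 122817880 of chromosome 8, plus strand, in GRCm38. The span of the annotated gene Gm20388 overlaps it on the same strand, and reads of any shared exon could not be assigned between them. Leaving out single libraries gave -3.45 to -2.84, and Acsf3 kept its call each time. Over the other 7 times the mean difference was -2.11 ± 0.14, and the ZT0 value was lower by 1.00 with an unadjusted p of 0.0276, which did not pass after adjustment.

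Besides the target, sh-Acsf3 livers at ZT0 had higher levels of some chemokine and T cell genes, MHC class II genes, some macrophage genes, some collagen and other matrix genes and a few cell cycle genes. Of 10097 genes tested, 52 passed at an adjusted p below 0.05 (0.515%), 47 of them higher (0.465%) and 5 lower (0.0495%). At least 2-fold changes numbered 40 among the rises and 4 among the falls, and 945 genes had an unadjusted p below 0.05. The median difference of all genes was -0.01, with 48.0% above 0 and 52.0% below. These shares and those of the calls are the background for the list counts below. In 49 of the 52 genes the 4 sh-Acsf3 values did not overlap the 4 sh-Ctl values, a separation that 3.21% of all tested genes showed upward and 1.96% downward. The exceptions were Thbs2, Rsad2 and Pcp4l1. The calls were sensitive to single libraries: 46 of the 52 ended without at least 1 of the 8, and the count fell to 9 without sh-Acsf3 replicate 2, to 14 without sh-Ctl replicate 2, to 25 without sh-Ctl replicate 1 or 3 and to 26 without sh-Acsf3 replicate 1. The 6 that passed in every one of these fits were Acsf3, Ccl5, Cdkn2c, Col3a1, Marcks and Mmp12, and all 52 kept their sign in every setting that gave them a value. The strand setting of the counting is not given in the sources used here. The spans of 15 of the 52 called genes overlap that of an annotated gene on the opposite strand. Spans include introns, and overlap of exons was not examined. Reads of any shared exon could not be told apart without the strand. The 15 genes are Adamts2, Ccnd1, Ear2, Ednra, Filip1l, H2-Eb1, Lpcat2, Mmp12, Msn, Oxct1, Slco3a1, Sox4, Timp3, Vcam1 and Zeb2. Another 7 overlaps of spans are with a gene on the same strand, for Abcg1, Acsf3, Cd74, Col1a2, Col3a1, Lpcat2 and Zeb2. There, reads of any shared exon could not be assigned whatever the strand setting. Uncalled genes described below, Acadvl and Arntl among them, have such neighbours too.

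**Figure D1:**
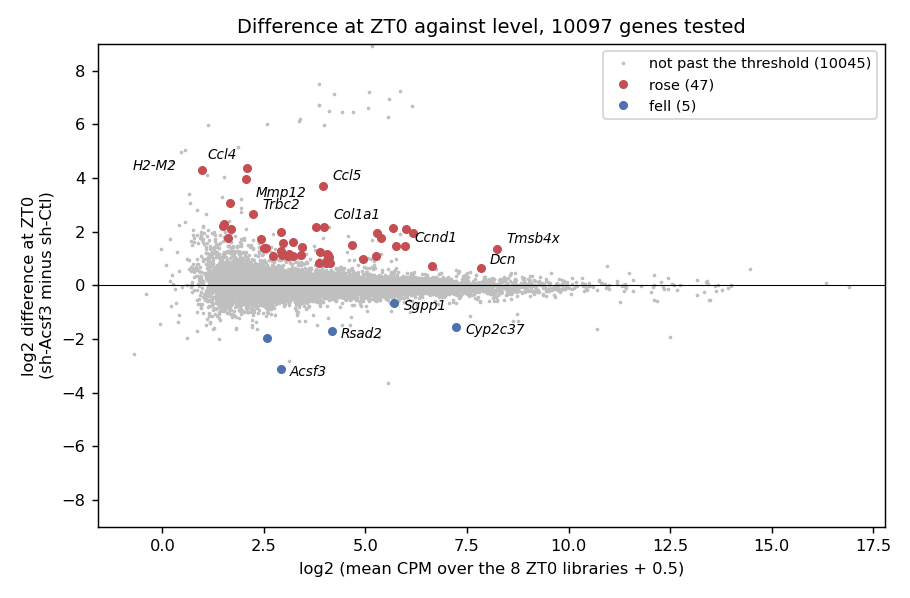
Each point is a gene, with log2 of its mean CPM over the 8 ZT0 libraries plus 0.5 on the horizontal axis and the log2 difference of sh-Acsf3 minus sh-Ctl on the vertical axis. The 47 genes that rose (red) lie mostly at low to middle levels, Acsf3 is the lowest of the 5 that fell (blue), and the grey points far above 0 include the pancreas genes, which did not pass.

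A pair of chemokine genes and a T cell receptor gene showed large rises. Ccl5 encodes a leukocyte attractant that activated T cells and NK cells release. Its level was 1.67, 1.54, 3.497 and 2.18 CPM in sh-Ctl and 29.4, 24.9, 30.3 and 27.2 CPM in sh-Acsf3. The groups lay far apart with little spread within the sh-Acsf3 libraries, and the difference was 3.72 ± 0.43 (edgeR adjusted p = 7e-08). Trbc2, a constant segment of the T cell receptor beta chain, was at 1.25, 0.615, 1.75 and 1.09 CPM in sh-Ctl and 6.36, 8.06, 6.41 and 7.94 CPM in sh-Acsf3, a difference of 2.65 ± 0.53 (adjusted p = 0.00656). The Trbc2 call ended without sh-Ctl replicate 2 (edgeR adjusted p = 0.0635). Ccl4, a chemokine of macrophages and lymphocytes, had 3 UMIs over the 4 sh-Ctl libraries together and 89 over the sh-Acsf3 libraries, a ratio of 19.4 per scaled library size with a 95% exact interval of 6.44 to 96.1 that covers counting error only. By library Ccl4 was at 0.418, 0.307, 0 and 0.364 CPM in sh-Ctl and at 4.89, 15.02, 3.15 and 5.67 CPM in sh-Acsf3. The test gave an adjusted p of 0.0049 for Ccl4, and the call ended without sh-Acsf3 replicate 2 (edgeR adjusted p = 0.0786). Both sit on chromosome 11, Ccl5 at 83525778 to 83530518 (minus strand) and Ccl4 at 83662584 to 83664683 (plus strand) in GRCm38.

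Of 32 T and NK cell markers 7 were tested, and 2 rose, Ccl5 and Trbc2, while 25 had too few counts for the test. Of all tested genes 0.465% rose. The filter kept a gene that reached its minimum in any 4 libraries, so a marker could pass through the sh-Acsf3 libraries alone, and the tested markers are not the whole list. Summed over all 32, the level was 9.84 to 19.8 CPM in sh-Ctl and 64.9 to 84.5 CPM in sh-Acsf3. Over the 25 untested ones it was 5.53 to 9.32 CPM in sh-Ctl and 16.99 to 29.5 CPM in sh-Acsf3, so the separation did not rest on Ccl5 and Trbc2. In sh-Ctl 6 of the 32 had no UMI, and Ncr1 had none in either group. Among untested defining markers, picked after their values were seen, Cd3d went from 7 UMIs over the sh-Ctl libraries to 19 over the sh-Acsf3 libraries, and Cd3e from 1 to 12. At the other 7 times the sum was 8.19 to 36.1 CPM over 28 sh-Ctl libraries and 26.4 to 100.4 CPM over 28 sh-Acsf3 libraries, and at each of these 7 times, as at ZT0, every sh-Acsf3 library lay above every sh-Ctl library. None of 8 tested B and plasma cell markers passed. Igkc, the kappa light chain of antibodies, was at 7.104, 6.15, 5.83 and 6.91 CPM in sh-Ctl and 22.5, 35.2, 10.9 and 24.95 CPM in sh-Acsf3 (adjusted p = 0.334). Of the 8 tested, 7 lay above 0 and 1 below. Ighm, another antibody gene, went the other way on average. It was at 13.8, 23.1, 15.2 and 4.73 CPM in sh-Ctl and 7.34, 10.6, 12.3 and 11.9 CPM in sh-Acsf3, which overlap. The 22 B cell markers summed to 20.003 to 39.96 CPM against 35.7 to 71.4 CPM, which overlap. In bulk liver, more cells of a type and more RNA per cell cannot be told apart.

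**Figure D2:**
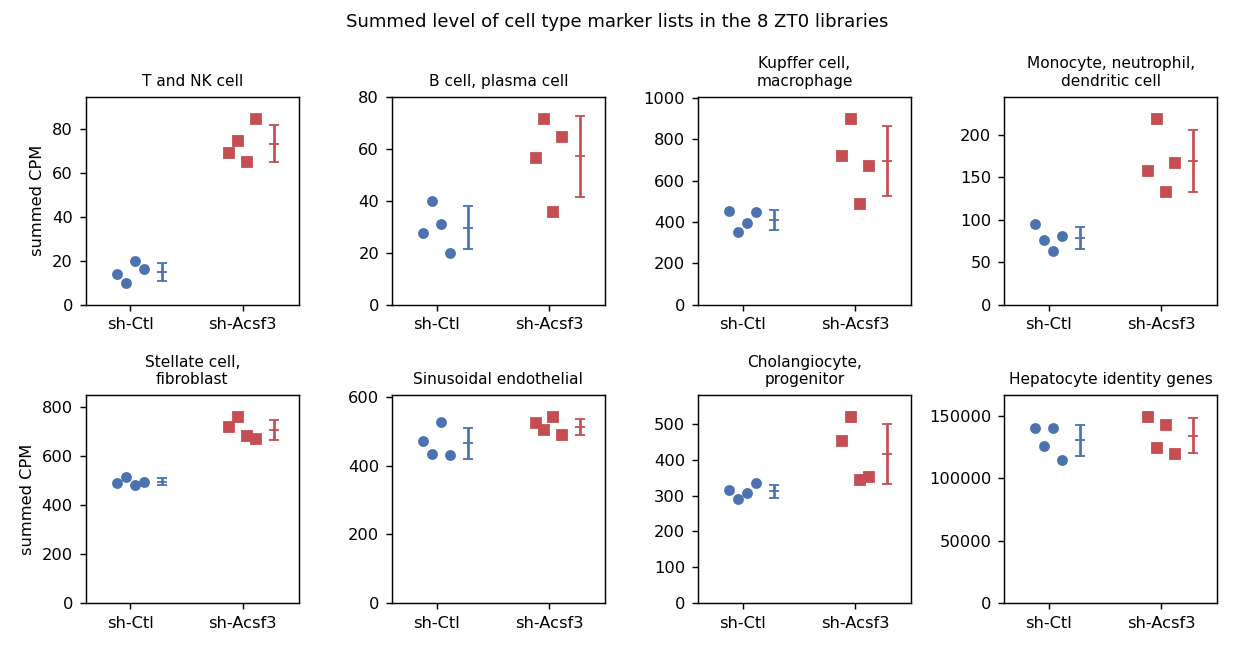
Summed CPM of 8 marker lists in each ZT0 library (blue circles sh-Ctl, red squares sh-Acsf3), with the mean and SD of 4 libraries beside the points and vertical axes that start at 0. The T and NK cell sum is 9.84 to 19.8 CPM in sh-Ctl and 64.9 to 84.5 CPM in sh-Acsf3, the macrophage, monocyte, stellate and cholangiocyte sums also separate, and the B cell, endothelial and hepatocyte sums overlap.

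MHC class II molecules present peptides from outside the cell to CD4 T cells. Their alpha and beta chains pair under the guidance of the invariant chain, encoded by Cd74. Of 11 listed genes of class II and its assembly 6 were tested, and 4 rose, beside 0.465% of all tested genes. The chain genes lie side by side on chromosome 17, H2-Ab1 from 34257689 to 34269419, H2-Aa from 34282744 to 34287823 and H2-Eb1 from 34305867 to 34316674 (GRCm38). Their known transcriptional switch acts through a set of short promoter elements, among them the X box and the Y box. For H2-Aa and H2-Eb1, which rose together, the 150 bases before the start are shown on the gene's strand (RefSeq table, GRCm38.p6). H2-Ab1 had no promoter window in that table. The risen gene Cd74 was left out here, so whether its promoter holds these elements is not reported. Capitals mark matches to CTNGCAAC, an X-box-type motif, and to CTGATTGG, a Y-box-type motif that holds a CCAAT box on the opposite strand. The H2-Aa window is chr17:34287824-34287973 on the minus strand and the H2-Eb1 window is chr17:34305717-34305866 on the plus strand.
H2-Aa: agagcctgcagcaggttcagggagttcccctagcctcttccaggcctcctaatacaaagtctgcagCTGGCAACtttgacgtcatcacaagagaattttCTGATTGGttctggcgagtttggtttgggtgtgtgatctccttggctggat
H2-Eb1: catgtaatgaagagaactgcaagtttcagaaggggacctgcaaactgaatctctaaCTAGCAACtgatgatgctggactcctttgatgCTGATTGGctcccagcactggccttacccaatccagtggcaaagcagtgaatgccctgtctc

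In H2-Aa the matches lay at -84 to -77 and -51 to -44 relative to the start, with 25 bases between them, and in H2-Eb1 at -94 to -87 and -62 to -55, with 24 bases between. Both strands were searched, and the motifs share no bases here. Among 32851 windows of 250 bases before annotated starts, 2.84% held the first motif, 3.83% the second and 0.155% both. A match describes these letters and was not tested as a binding site.

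H2-Aa, an alpha chain, was at 24.2, 18.8, 23.9 and 29.1 CPM in sh-Ctl and 104, 148, 49.6 and 112 CPM in sh-Acsf3. The beta chains were at 12.95, 13.8, 21.6 and 15.3 CPM against 63.6, 71.8, 44.8 and 64.6 CPM for H2-Ab1 and at 21.7, 14.4, 19.2 and 18.9 CPM against 92.98, 143, 30.4 and 65.8 CPM for H2-Eb1. Cd74 was at 35.9, 24.9, 24.5 and 29.8 CPM and 92.5, 194, 41.9 and 125 CPM. In all 4 genes sh-Acsf3 replicate 3 was the lowest of its group and replicate 2 the highest, and no sh-Acsf3 value reached down to the sh-Ctl values. The differences were 2.09 ± 0.50 for H2-Aa, 1.95 ± 0.44 for H2-Ab1, 2.15 ± 0.52 for H2-Eb1 and 1.96 ± 0.47 for Cd74, with edgeR adjusted p of 0.0322, 0.0174, 0.0364 and 0.0349. The H2-Aa call ended without sh-Ctl replicate 1, 2, 3 or 4 or sh-Acsf3 replicate 1, 2 or 4 (edgeR adjusted p = 0.0541 to 0.177), and that of H2-Ab1 without sh-Ctl replicate 1 or 2 or sh-Acsf3 replicate 2 (edgeR adjusted p = 0.0738 to 0.0938). The H2-Eb1 call ended without sh-Ctl replicate 1, 2, 3 or 4 or sh-Acsf3 replicate 1 or 2 (edgeR adjusted p = 0.0789 to 0.249), and that of Cd74 without sh-Ctl replicate 1, 2, 3 or 4 or sh-Acsf3 replicate 1, 2 or 4 (edgeR adjusted p = 0.0559 to 0.258). None of 18 tested genes of MHC class I and the immunoproteasome passed, and the classical class I gene H2-D1 was at 420.4, 450.04, 398 and 383 CPM against 512, 598, 526 and 424 CPM, which overlap. The nonclassical class I gene H2-M2, outside that list and chosen after its values were seen, had 1 UMI in sh-Ctl and 40 in sh-Acsf3 (adjusted p = 0.0152), a ratio of 26.2 with a counting interval of 4.44 to 1061. The H2-M2 call ended without sh-Ctl replicate 1, 2 or 4 or sh-Acsf3 replicate 2 (edgeR adjusted p = 0.0575 to 0.0965).

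Some macrophage genes rose too. Mmp12 encodes the elastase of macrophages, and it was at 0, 0.307, 0 and 1.09 CPM in sh-Ctl and 3.92, 12.1, 3.6001 and 8.51 CPM in sh-Acsf3. Its 4 UMIs against 88 gave a ratio of 14.4 with a counting interval of 5.44 to 54.1, and an edgeR adjusted p of 0.00162. Lgals3, the gene of the macrophage lectin galectin-3, was at 4.18, 3.07, 6.99 and 5.09 CPM against 18.1, 36.3, 12.2 and 19.8 CPM, a difference of 2.18 ± 0.48 (adjusted p = 0.0152). The Lgals3 call ended without sh-Ctl replicate 1 or 2 or sh-Acsf3 replicate 2 (edgeR adjusted p = 0.0598 to 0.165). Clec7a, a receptor for fungal glucans on myeloid cells, was at 3.34, 1.84, 4.66 and 1.82 CPM against 11.3, 18.3, 6.98 and 8.51 CPM, a difference of 1.99 ± 0.42 (adjusted p = 0.0117), and its call ended without sh-Ctl replicate 2 or sh-Acsf3 replicate 2 (edgeR adjusted p = 0.0931 to 0.124). Laptm5, a lysosomal membrane protein of leukocytes, differed by 1.43 ± 0.35, and the call ended without sh-Ctl replicate 2, 3 or 4 or sh-Acsf3 replicate 1, 2 or 3 (edgeR adjusted p = 0.0665 to 0.133). Sh-Acsf3 replicate 2 was the highest library for Mmp12, Lgals3 and Clec7a.

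Of 24 tested Kupffer cell and macrophage markers 2 rose, Mmp12 and Lgals3, and 22 had a difference above 0. Their median was 0.73 against 0.31 over the other 7 times. Of all tested genes 0.465% rose and 48.0% lay above 0. The 27 listed markers summed to 349.8 to 451 CPM in sh-Ctl and 487 to 898 CPM in sh-Acsf3. Of 12 tested markers of monocytes, neutrophils and dendritic cells 1 rose, Laptm5, and all 12 lay above 0. In this list, as in the others, a marker could pass the filter through the sh-Acsf3 libraries alone. The sign counts therefore describe tested members only. Sums over all 26 genes were 62.9 to 94.9 CPM in sh-Ctl against 132 to 219 CPM in sh-Acsf3. Over the 14 untested ones they were 2.09 to 5.25 CPM against 5.87 to 13.6 CPM. For the macrophage sum, every sh-Acsf3 library lay above every sh-Ctl library at 0 of the other 7 times. For the monocyte sum this held at 2 of those 7 times. The sums were not tested between times. Further genes of myeloid cells that passed, chosen after their values were seen, were Sirpa, an inhibitory receptor, with 1.14 ± 0.26, Axl, a receptor tyrosine kinase for apoptotic cell uptake, with 1.25 ± 0.30, and Ear2, an eosinophil-associated ribonuclease with 5 UMIs over the sh-Ctl libraries against 57. The Sirpa call ended without sh-Ctl replicate 1, 2 or 3 or sh-Acsf3 replicate 2 or 4 (edgeR adjusted p = 0.0524 to 0.13), that of Axl without sh-Ctl replicate 1, 2 or 3 or sh-Acsf3 replicate 1 or 2 (edgeR adjusted p = 0.0561 to 0.233) and that of Ear2 without sh-Ctl replicate 1, 2, 3 or 4 or sh-Acsf3 replicate 1 or 2 (edgeR adjusted p = 0.0738 to 0.168). Chosen likewise, the cholesterol exporter Abcg1 differed by 1.13 ± 0.25, the lysosomal tetraspanin Cd63 by 1.38 ± 0.33, and the phospholipid-remodelling enzyme Lpcat2 by 2.09 ± 0.53. The Abcg1 call ended without sh-Ctl replicate 2 or sh-Acsf3 replicate 1 or 2 (edgeR adjusted p = 0.0585 to 0.1), that of Cd63 without sh-Ctl replicate 1, 2 or 4 or sh-Acsf3 replicate 2 or 3 (edgeR adjusted p = 0.0683 to 0.147) and that of Lpcat2 without sh-Ctl replicate 1, 2 or 3 or sh-Acsf3 replicate 1, 2, 3 or 4 (edgeR adjusted p = 0.0581 to 0.232).

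Some matrix genes rose as well. Fibrillar collagens are made in liver mainly by stellate cells and fibroblasts. Col3a1 was at 20.9, 15.1, 16.9 and 22.2 CPM in sh-Ctl and 70.96, 80.6, 66.4 and 39.1 CPM in sh-Acsf3, and Col1a1 at 5.85, 5.84, 2.91 and 6.55 CPM against 30.3, 32.6, 21.9 and 15.9 CPM. Col1a2 was at 12.95, 9.22, 11.1 and 18.5 CPM against 48.4, 43.6, 33.2 and 22.7 CPM. The groups did not overlap for any of these 3 collagens, and sh-Acsf3 replicate 4 was the lowest of its group in each. The differences were 1.78 ± 0.34 for Col3a1, 2.19 ± 0.48 for Col1a1 and 1.51 ± 0.33 for Col1a2, with edgeR adjusted p of 0.00548, 0.0152 and 0.0152. The Col1a1 call ended without sh-Ctl replicate 1, 2 or 3 or sh-Acsf3 replicate 1 or 2 (edgeR adjusted p = 0.0509 to 0.0919), and that of Col1a2 without sh-Ctl replicate 2 or 3 or sh-Acsf3 replicate 1 or 2 (edgeR adjusted p = 0.0561 to 0.0965).

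In the list of collagens and collagen processing 28 genes were tested and 6 rose, the 3 fibrillar ones and Vim, Sparc and Timp3. Of the 28, 24 lay above 0, with a median of 0.85. Of all tested genes 0.465% rose and 48.0% lay above 0. The 33 members summed to 1229 to 1409 CPM in sh-Ctl and 1335 to 1688 CPM in sh-Acsf3, which overlap. The members not called summed to 1086 to 1254 CPM against 1022 to 1451 CPM, which overlap too. Vim, an intermediate filament of mesenchymal cells, differed by 1.09 ± 0.25 and lost its call without sh-Ctl replicate 1, 2 or 3 or sh-Acsf3 replicate 1 or 2 (edgeR adjusted p = 0.0662 to 0.1). Sparc, a collagen-binding glycoprotein, differed by 0.74 ± 0.18 and lost it without sh-Ctl replicate 2, 3 or 4 or sh-Acsf3 replicate 1, 2 or 3 (edgeR adjusted p = 0.0614 to 0.199). Timp3, an inhibitor of matrix metalloproteinases, differed by 0.84 ± 0.21 and lost it without sh-Ctl replicate 1, 2, 3 or 4 or sh-Acsf3 replicate 1, 2 or 3 (edgeR adjusted p = 0.0633 to 0.192). Dcn, a collagen-binding proteoglycan and the only riser among 25 tested stellate cell and fibroblast markers, was at 166, 194, 153 and 195 CPM in sh-Ctl and 277, 313, 233 and 289 CPM in sh-Acsf3, a difference of 0.65 ± 0.15 (adjusted p = 0.0236). The Dcn call ended without sh-Ctl replicate 1, 2 or 3 or sh-Acsf3 replicate 1 or 2 (edgeR adjusted p = 0.0585 to 0.147). The 27 stellate markers summed to 481 to 517 CPM in sh-Ctl and 671 to 759.9 CPM in sh-Acsf3, and 22 of the 25 tested lay above 0. For this sum every sh-Acsf3 library also lay above every sh-Ctl library at 7 of the other 7 times.

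Other matrix-related genes passed and were chosen after their values were seen. Adamts2, which trims procollagen, differed by 1.73 ± 0.39, the matricellular gene Thbs2 by 2.30 ± 0.59, Ccdc80 by 1.16 ± 0.27, the TGF-beta-induced gene Tgfbi by 0.83 ± 0.21 and Pmepa1, an inhibitor of TGF-beta signalling, by 1.16 ± 0.29. Gdf10, a ligand of the TGF-beta family, differed by 1.10 ± 0.25 and the endothelin receptor Ednra by 2.22 ± 0.52. The Adamts2 call ended without sh-Ctl replicate 1, 2 or 3 or sh-Acsf3 replicate 2 (edgeR adjusted p = 0.0523 to 0.0993), that of Thbs2 without sh-Ctl replicate 1, 2 or 3 or sh-Acsf3 replicate 1 or 2 (edgeR adjusted p = 0.127 to 0.231) and that of Ccdc80 without sh-Ctl replicate 2 or sh-Acsf3 replicate 1 or 2 (edgeR adjusted p = 0.0786 to 0.203). The Tgfbi call ended without sh-Ctl replicate 1, 2 or 3 or sh-Acsf3 replicate 1, 2, 3 or 4 (edgeR adjusted p = 0.0541 to 0.288), that of Pmepa1 without sh-Ctl replicate 1, 2, 3 or 4 or sh-Acsf3 replicate 2, 3 or 4 (edgeR adjusted p = 0.0566 to 0.231) and that of Gdf10 without sh-Ctl replicate 2 or 4 or sh-Acsf3 replicate 2 or 3 (edgeR adjusted p = 0.0536 to 0.0788). The Ednra call ended without sh-Ctl replicate 1, 2 or 3 or sh-Acsf3 replicate 1 or 2 (edgeR adjusted p = 0.0585 to 0.103). Vcam1, an adhesion molecule that holds leukocytes and the only one of 24 tested sinusoidal endothelial markers to pass, was at 2.93, 4.92, 3.497 and 3.27 CPM against 8.81, 15.8, 10.4 and 9.07 CPM, a difference of 1.56 ± 0.32. The Vcam1 call ended without sh-Acsf3 replicate 2 (edgeR adjusted p = 0.0786). The 24 endothelial markers summed to 429.9 to 527 CPM in sh-Ctl and 488 to 541 CPM in sh-Acsf3, which overlap.

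**Figure D3:**
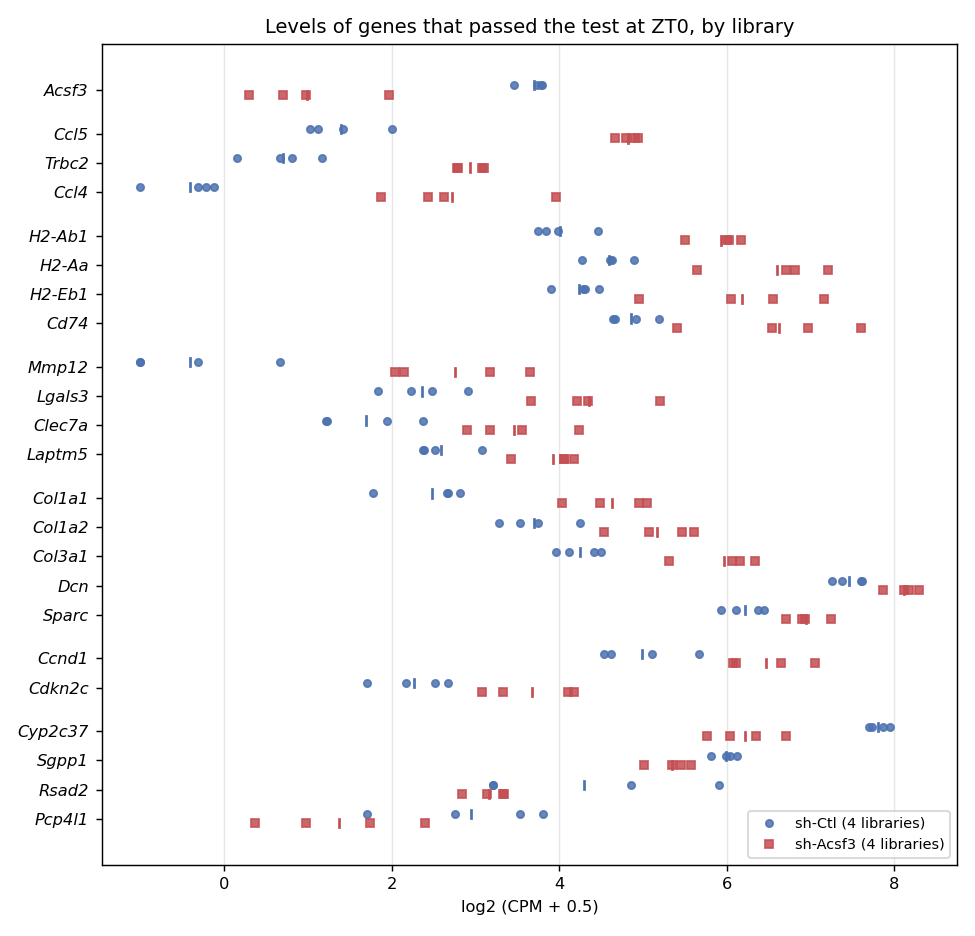
Level of 23 genes that passed the test, as log2 of CPM plus 0.5, in each of the 4 sh-Ctl (blue circles) and 4 sh-Acsf3 (red squares) libraries, with a short vertical line at the mean of the log2 values. The groups separate for all but Rsad2, where 2 of the sh-Ctl libraries stand high, and Pcp4l1.

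Cell cycle genes gave 2 rises among 26 tested, beside 0.465% of all tested genes. Ccnd1 encodes cyclin D1, which drives entry into the cycle, and was at 50.6, 34.1, 22.7 and 24.003 CPM in sh-Ctl and 99.8, 132, 67.2 and 68.6 CPM in sh-Acsf3. Cdkn2c, the gene of an inhibitor of the cyclin D kinases, was at 5.85, 2.77, 5.25 and 4.001 CPM against 17.6, 9.53, 16.8 and 7.94 CPM. Every sh-Acsf3 library lay above every sh-Ctl library in both. The differences were 1.47 ± 0.30 for Ccnd1 and 1.63 ± 0.27 for Cdkn2c, with edgeR adjusted p of 0.0105 and 0.000397. The Ccnd1 call ended without sh-Ctl replicate 3 or sh-Acsf3 replicate 2 (edgeR adjusted p = 0.0525 to 0.0984). The median over the list was 0.44, and 22 of the 26 lay above 0, beside 48.0% of all tested genes. Plk2, a kinase gene of the p53 response, differed by 1.10 ± 0.28, the only rise among 13 tested p53 targets, and its call ended without sh-Ctl replicate 1, 3 or 4 or sh-Acsf3 replicate 1, 2, 3 or 4 (edgeR adjusted p = 0.0585 to 0.183).

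Of 27 tested actin, tubulin and annexin genes 1 rose, Tmsb4x, and the list median was 0.20, with 20 above 0 and 7 below. Tmsb4x, which holds actin monomers and was the most abundant of the rises, was at 183, 106, 178 and 207 CPM in sh-Ctl and 379, 551, 359 and 451 CPM in sh-Acsf3, a difference of 1.37 ± 0.28 (adjusted p = 0.00821). The Tmsb4x call ended without sh-Ctl replicate 2 or sh-Acsf3 replicate 2 (edgeR adjusted p = 0.0662 to 0.0786). Further genes that passed belong to none of the lists and were chosen after their values were seen. Marcks, a membrane protein that binds actin, was at 23.4, 19.1, 22.1 and 16.7 CPM against 42.1, 41.04, 39.5 and 36.9 CPM (difference 0.98 ± 0.19, adjusted p = 0.00548), with little spread in either group. Msn, which links actin to the membrane, differed by 0.95 ± 0.24, and its call ended without any 1 of the 8 libraries (edgeR adjusted p = 0.0639 to 0.244). Abi2, an actin regulator, differed by 1.75 ± 0.42 and Filip1l by 1.27 ± 0.32, and the calls ended without sh-Ctl replicate 1, 2 or 3 or sh-Acsf3 replicate 1, 2 or 3 (edgeR adjusted p = 0.0582 to 0.105) and without sh-Ctl replicate 1, 2, 3 or 4 or sh-Acsf3 replicate 1 or 2 (edgeR adjusted p = 0.0585 to 0.262). The transcription factor genes Zeb2 and Sox4 differed by 0.85 ± 0.19 and 1.14 ± 0.27, and the calls ended without sh-Ctl replicate 2 or 3 or sh-Acsf3 replicate 2 (edgeR adjusted p = 0.0897 to 0.0965) and without sh-Ctl replicate 1, 2 or 3 or sh-Acsf3 replicate 1, 2 or 3 (edgeR adjusted p = 0.0561 to 0.127). The organic anion transporter Slco3a1 differed by 1.38 ± 0.29, and its call ended without sh-Acsf3 replicate 2 (edgeR adjusted p = 0.1).

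A pair of rises concerned lipid and ketone use. Cd36, a fatty acid importer, was at 9.61, 9.84, 11.7 and 11.6 CPM in sh-Ctl and 20.6, 21.6, 19.01 and 28.9 CPM in sh-Acsf3, a difference of 1.05 ± 0.27 (adjusted p = 0.0492). It was the only one of 24 tested PPARalpha targets to pass, and its call ended without sh-Ctl replicate 1, 2, 3 or 4 or sh-Acsf3 replicate 1, 2 or 4 (edgeR adjusted p = 0.0747 to 0.183). Oxct1, the enzyme that lets tissues burn ketone bodies and that hepatocytes largely lack, was at 6.27, 3.07, 1.75 and 4.001 CPM against 9.79, 9.89, 6.98 and 7.37 CPM, a difference of 1.10 ± 0.28. The Oxct1 call ended without sh-Ctl replicate 2, 3 or 4 or sh-Acsf3 replicate 1 or 2 (edgeR adjusted p = 0.0808 to 0.244). Macrophages and other non-hepatocyte cells express Cd36 and Oxct1 too, and the part of the marker levels above in these differences was not tested.

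The falls were few. Cyp2c37, a cytochrome P450 of the 2C family whose near relatives can share reads, was at 212, 207, 246 and 233 CPM in sh-Ctl and 81.2, 53.9, 104 and 65.2 CPM in sh-Acsf3, a difference of -1.55 ± 0.33 (adjusted p = 0.0152). The Cyp2c37 call ended without sh-Acsf3 replicate 2 (edgeR adjusted p = 0.1). It was the 1 fall among 25 tested xenobiotic P450 genes and PXR or CAR targets. Sgpp1, a phosphatase of sphingosine 1-phosphate, was at 55.6, 69.2, 62.9 and 65.5 CPM against 40.1, 31.9, 43.3 and 47.1 CPM, a difference of -0.64 ± 0.14, and its call ended without sh-Ctl replicate 2 or 4 or sh-Acsf3 replicate 1 or 2 (edgeR adjusted p = 0.0533 to 0.147). Rsad2, an antiviral interferon-stimulated gene, was at 59.3, 28.6, 8.74 and 8.73 CPM in sh-Ctl and 8.32, 9.53, 6.64 and 9.64 CPM in sh-Acsf3. Here sh-Ctl replicates 1 and 2 were high and replicates 3 and 4 lay within the sh-Acsf3 range, so the difference of -1.70 ± 0.41 rests on 2 libraries, and the call ended without sh-Ctl replicate 1 or 2 or sh-Acsf3 replicate 1, 2 or 3 (edgeR adjusted p = 0.0811 to 0.429). Rsad2 was the 1 member of 33 tested interferon-stimulated genes to pass. Pcp4l1 was at 6.27, 2.77, 11.1 and 13.5 CPM against 1.47, 4.76, 0.788 and 2.84 CPM, which overlap, and its call ended without sh-Ctl replicate 1, 3 or 4 or sh-Acsf3 replicate 1, 3 or 4 (edgeR adjusted p = 0.0541 to 0.341). Cyp2c40, in the female-biased list, was at 30.1, 9.22, 10.5 and 5.82 CPM against 0.979, 1.47, 1.13 and 6.24 CPM and did not pass (adjusted p = 0.073).

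None of 14 tested genes of the major urinary proteins passed. They are made in the liver under growth hormone and are near-identical copies that can share reads. Their median difference was -0.95, against -1.53 over the other 7 times, and 13 of 14 lay below 0. Mup11 was at 3588, 6895, 4155 and 22369 CPM in sh-Ctl and 1011, 1896, 1023 and 5763 CPM in sh-Acsf3 (adjusted p = 0.334), and Mup9 at 6.69, 13.2, 11.1 and 309 CPM against 6.85, 5.13, 3.15 and 17.6 CPM (adjusted p = 0.133). For both, sh-Ctl replicate 4 was far above the other libraries, and the groups overlap. Among male-biased growth hormone targets 26 were tested and none passed, with a median of -0.02.

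Genes of the pathways around ACSF3 did not pass. Among genes of malonyl-CoA, mitochondrial fatty acid synthesis and lipoylation 23 were tested, none passed and the median was -0.14, with 15 below 0. Mecr, the last enzyme of mitochondrial fatty acid synthesis, was at 12.95, 14.4, 11.7 and 13.1 CPM in sh-Ctl and 11.3, 9.89, 6.86 and 10.8 CPM in sh-Acsf3 (adjusted p = 0.371). Pdhx, which anchors a subunit of pyruvate dehydrogenase, was at 13.8, 14.1, 15.7 and 16.4 CPM against 8.32, 11.7, 13.2 and 7.94 CPM (adjusted p = 0.468). Both pairs of groups were free of overlap although neither passed. Of the 23 tested in this list, 5 were free of overlap downward and 1 upward, beside 1.96% and 3.21% of all tested genes. Members share libraries, and these counts were not tested. In the branched-chain amino acid and propionate list none of 27 passed, with a median of -0.11, and Mccc2, a subunit of methylcrotonyl-CoA carboxylase, was at 59.8, 76.5, 64.1 and 68.7 CPM against 54.3, 49.8, 50.96 and 59.5 CPM. Mmab, which makes the cobalamin cofactor of methylmalonyl-CoA mutase, was at 9.19, 15.4, 13.4 and 9.82 CPM against 6.36, 2.56, 8.78 and 7.37 CPM (adjusted p = 0.334).

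No gene passed in the other mitochondrial lists, whose medians lay slightly below 0 for nuclear-encoded genes and slightly above 0 for mitochondrially encoded ones. Nuclear-encoded respiratory chain and ATP synthase genes had 0 calls among 72 tested, a median of -0.13 and 64 below 0, beside 52.0% of all genes. Ndufa3, a subunit of complex I, was at 308, 334, 346 and 308 CPM against 285, 232, 142 and 293 CPM, with sh-Acsf3 replicate 3 the lowest. The TCA cycle and pyruvate entry list had 25 of 31 below 0 and a median of -0.18. Mdh1, the cytosolic malate dehydrogenase, was at 754, 789, 791 and 654 CPM against 665, 564, 581 and 526 CPM (adjusted p = 0.125). Fatty acid oxidation and ketone body genes had a median of -0.12 over 24, with the mitochondrial importer step Cpt2 at 111, 119.6, 125 and 123 CPM against 87.1, 104, 76.1 and 104 CPM and the dehydrogenase Acadvl at 181, 193, 159.7 and 199 CPM against 175, 148, 115 and 142 CPM. The 9 tested mitochondrially encoded genes had a median of 0.12, with 7 above 0, and a median of -0.18 without sh-Acsf3 replicate 3, the library with high mt-Rnr1. No member of these lists passed, and members share libraries, so a shared sign is not a count of independent changes.

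Fatty acid and triglyceride synthesis had 23 of 28 below 0, a median of -0.17 and no call. Dgat2, the last enzyme of triglyceride synthesis, was at 272, 246, 256 and 229 CPM in sh-Ctl and 175, 169, 182 and 182 CPM in sh-Acsf3, a separation of the groups with an adjusted p of 0.114. Thrsp, a lipogenic regulator, was at 1144, 512, 520.4 and 82.9 CPM against 228, 143, 412 and 109 CPM and overlapped. Cholesterol synthesis and uptake had a median of -0.25 at ZT0 and 0.14 over the other 7 times, with 18 of 24 below 0 and no call, and the ZT0 median turned to 0.016 without sh-Ctl replicate 1. In that list Mvk, mevalonate kinase, was at 26.3, 13.2, 18.1 and 12.4 CPM against 14.2, 10.6, 10.8 and 8.51 CPM, and Fdft1, squalene synthase, at 169, 126, 149 and 99.7 CPM against 99.8, 104, 127 and 68.1 CPM. Their ZT0 differences of -0.65 for Mvk and -0.43 for Fdft1 stood beside 0.16 and 0.24 at the other times, with unadjusted p of 0.00986 and 0.0142 for the departure. In the apolipoprotein and lipoprotein list, of 23 tested genes without a call, Lpl, the lipoprotein lipase that macrophages also express, was at 31.3, 21.8, 23.3 and 16.4 CPM against 64.6, 40.3, 49.95 and 27.8 CPM (adjusted p = 0.127).

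Liver identity and plasma protein lists moved little. The 22 hepatocyte identity genes had a median of -0.03 and no call, and they summed to 114624 to 140711 CPM in sh-Ctl and 119707 to 148933 CPM in sh-Acsf3. Abundant hepatocyte transcripts were thus present in all 8 libraries. Cebpa, a transcription factor of hepatocytes, was at 81.9, 102, 88.001 and 97.8 CPM against 76.3, 65.95, 88.9 and 72.6 CPM. Medians were 0.09 for 29 acute-phase genes, 0.06 for 35 coagulation and complement genes, -0.07 for 80 ribosomal protein genes and -0.11 for 31 proteasome genes, with no call in any of them. Hamp, the iron hormone hepcidin, was at 1003, 2437, 1004 and 1499 CPM against 2371, 2520, 1967 and 2909 CPM (adjusted p = 0.334). The glucose transporter Slc2a2, in a glycolysis and fructose list of 21 without a call and with a median of -0.20, was at 185, 202, 198 and 156 CPM against 151, 132, 151 and 115 CPM, free of overlap, with an adjusted p of 0.334. None of 16 immediate early genes passed. Klf6, among them, was at 10.03, 5.53, 6.99 and 9.46 CPM against 13.2, 25.3, 12.7 and 11.9 CPM, with sh-Acsf3 replicate 2 the highest (adjusted p = 0.0891). Spp1, osteopontin, in the cholangiocyte list of 7 tested genes without a call, was at 46.4, 36.6, 36.1 and 23.3 CPM against 92.98, 75.8, 57.2 and 55.01 CPM, and the 16 listed cholangiocyte markers summed to 292 to 336 CPM against 345 to 519.5 CPM. Their sum separated the groups in the same way at 1 of the other 7 times.

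Stress and zonation lists gave no calls. Medians were 0.17 for 27 genes of ER stress and the integrated stress response (-0.07 over the other 7 times), 0.25 for 14 glucocorticoid targets and metallothioneins (-0.04), -0.05 for 17 heat shock and cold-inducible genes (-0.06) and -0.03 for 26 NRF2 targets and glutathione transferases (0.05). Pericentral hepatocyte genes had a median of 0.13 over 22, with 5 below 0, and periportal ones -0.01 over 17. Bile acid genes had a median of -0.08 over 21, gluconeogenesis and fasting genes -0.08 over 25, urea cycle and amino acid genes -0.04 over 33 and rhythmic output genes -0.03 over 21. The differences between ZT0 and the other times were not called for any member of any list.

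The core clock turns over daily through activators and repressors that take turns, and ZT0 lies in the phase when Arntl is high. None of 18 tested clock genes passed, and the median difference was -0.12. The activator Arntl was at 17.1, 14.8, 12.8 and 13.5 CPM in sh-Ctl and 17.1, 15.02, 13.7 and 17.6 CPM in sh-Acsf3, and Clock at 28.4, 35.7, 20.4 and 35.6 CPM against 28.9, 30.4, 21.2 and 35.2 CPM. The repressor Per2 was at 3.76, 11.7, 5.25 and 10.2 CPM against 5.38, 6.23, 3.15 and 9.07 CPM, and Cry1 at 13.8, 12.9, 10.5 and 11.6 CPM against 4.89, 8.79, 10.7 and 19.3 CPM. These groups overlap. Differences were 0.09 for Arntl, -0.11 for Clock, -0.13 for Npas2, 0.37 for Per1, -0.62 for Per2, 0.02 for Per3, -0.20 for Cry1, -0.31 for Cry2 and -0.31 for Ciart. They were -0.82 for Nr1d1, -0.22 for Nr1d2, 0.25 for Rora, -0.48 for Bhlhe40, 0.07 for Nfil3, 0.02 for Csnk1d and 0.34 for Csnk1e (log2). None of these clock genes separated the groups, and 9 of these 16 changed sign in at least 1 alternative.

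**Figure D4:**
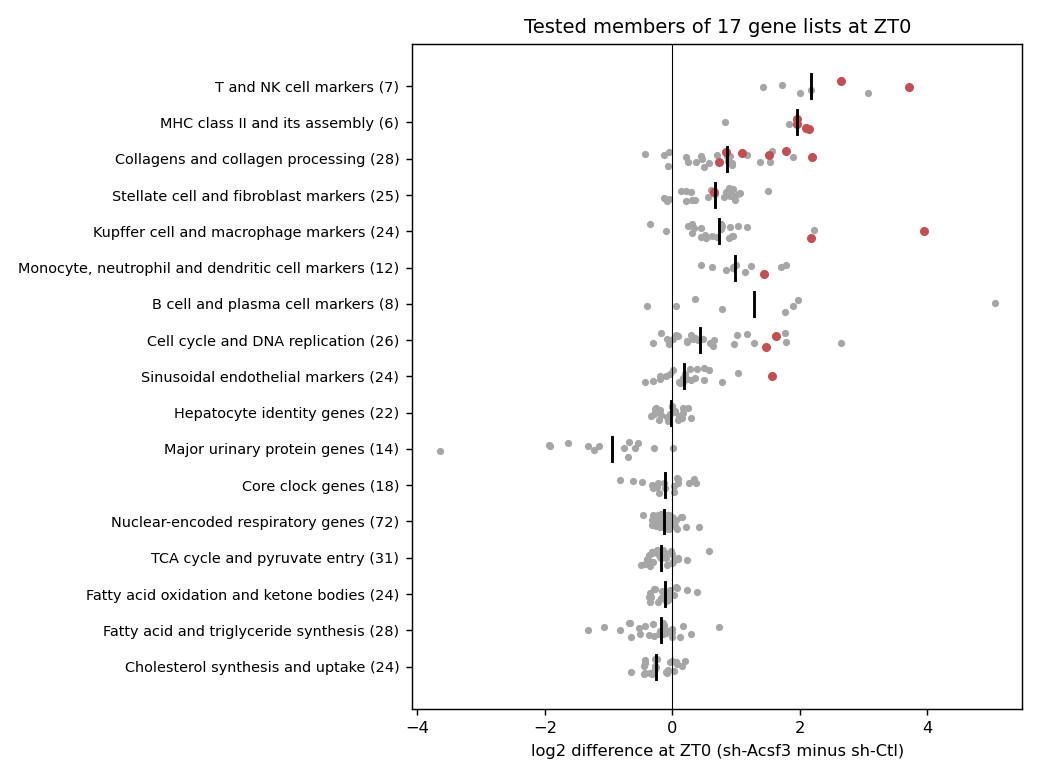
Log2 difference at ZT0 of the tested members of 17 gene lists, with the number tested in brackets, genes that passed in red and the list median as a black bar. The T cell and MHC class II lists hold 2 and 4 of the calls. The collagen list holds 6, with Vim, Sparc and Timp3 among them. The respiratory, TCA cycle and cholesterol lists lie slightly below 0 without a call.

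Whether ZT0 was particular was tested as the departure of its difference from the mean difference at the other 7 times. In edgeR no gene passed (smallest adjusted p = 0.872), 542 had an unadjusted p below 0.05, and DESeq2 and limma-voom also gave 0, with 472 and 663 genes at an unadjusted p below 0.05. All 52 genes had the same sign in the mean of the other times, and 48 were called there in the same direction. That mean called 1339 genes (13.3%), 759 higher (7.52%) and 580 lower (5.74%), from 28 libraries per treatment against 4 at ZT0. At each other time alone, 45 of the 52 had the same sign at all 7 and 34 were called at 1 or more. Of the 759, 659 lay above 0 at ZT0 with a median of 0.48 beside 0.53, and of the 580, 430 lay below 0 with a median of -0.13 beside -0.24. The comparisons at single times called 52 genes at ZT0, 7 at ZT3, 22 at ZT6, 36 at ZT9, 141 at ZT12, 3 at ZT15, 17 at ZT18 and 32 at ZT21, counts that were not tested against each other.

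**Figure D5:**
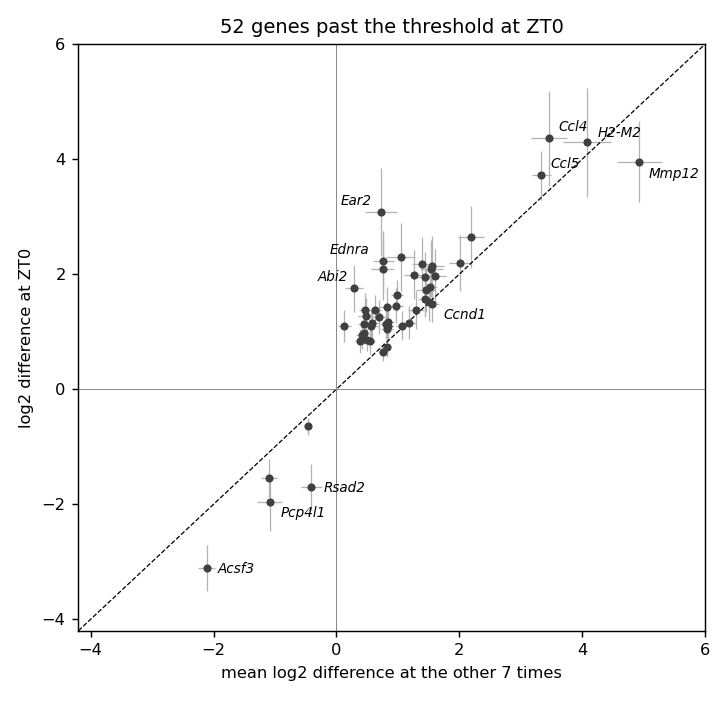
The 52 genes that passed at ZT0, with the mean log2 difference at the other 7 times on the horizontal axis and the log2 difference at ZT0 on the vertical axis, bars of 1 SE and a dashed line of equality. All 52 have the same sign on both axes, and most of the rises lie above the line. The 52 were chosen by their ZT0 value, so this is a description.

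Over the day the called genes ran as follows. Ccl5 passed at all 8 times, with differences of 3.72, 3.52, 2.80, 3.00, 3.02, 3.07, 4.16 and 3.77 from ZT0 to ZT21. Ccnd1 lay between 1.23 and 1.93 at every time and passed at 7 of the 8, the exception being ZT18 with an adjusted p of 0.0761. Col3a1 had 1.78 at ZT0 and 1.18 to 2.29 elsewhere, and it passed also at ZT6, 9, 12 and 21. H2-Aa had 2.09 at ZT0, 0.56 at ZT6 and 2.28 at ZT12, and H2-Ab1 1.95, 0.40 and 2.06 at those times, with ZT6 the lowest of the 8 for both. Cdkn2c ran from 0.44 at ZT9 to 1.63 at ZT0. Tmsb4x had 1.37 at ZT0 and 0.24 to 0.86 at the other times, where it passed at none. Plk2 had 1.10 at ZT0 and -0.16 to 0.52 elsewhere, and Rsad2 -1.70 at ZT0 and -0.86 to 0.44 elsewhere, with no call at another time. Acsf3 itself ran from -3.21 at ZT6 to -1.50 at ZT12 and did not pass at ZT21 (adjusted p = 0.0814). None of these genes passed the departure test, so a difference between ZT0 and the other times was not shown for any of them.

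The 6 genes with the smallest p for departure did not pass. Pebp1, an inhibitor of RAF kinase, differed by -0.56 ± 0.15 at ZT0 and by 0.12 ± 0.06 at the other times (unadjusted p = 8.82e-05), and Gramd4 by -1.29 ± 0.36 and 0.21 ± 0.15 (unadjusted p = 0.000279). The nuclear importer Ipo7 differed by 0.60 ± 0.17 at ZT0 and -0.08 ± 0.06 elsewhere, and Mtg1, a GTPase of the mitochondrial ribosome, by -0.69 ± 0.19 and 0.06 ± 0.07. Slc39a1, a zinc importer, differed by 0.66 ± 0.26 and -0.34 ± 0.10, and Pml, the scaffold of PML nuclear bodies, by -0.59 ± 0.23 and 0.28 ± 0.09. Among called genes, Plk2 differed by 0.13 ± 0.11 over the other times and Ear2 by 0.72 ± 0.26, both lower than at ZT0, with unadjusted p of 0.00201 for Plk2 and 0.00721 for Ear2.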

How the data were processed

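Total RNA of frozen liver was sequenced in 64 libraries, and the labels' protocol refers to a published bulk RNA barcoding pipeline for details. The authors deposited raw counts per gene in a table whose name calls them UMI counts, and the submitters' processing notes name STAR and GRCm38/mm10. Annotation release, strand setting and UMI merging are not given in the sources used here. Columns were matched to labels by treatment, time and replicate.

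Counts were fitted in R 4.3.3 with edgeR 4.0.16 (filterByExpr, minimum count 10 and total 15, 10097 of 55487 genes kept; TMM; robust quasi-likelihood; 16 group means over all 64 libraries; 48 residual degrees of freedom; common biological coefficient of variation 0.189). The contrast was sh-Acsf3 minus sh-Ctl at ZT0, and its departure from the mean of the other 7 times. Adjustment was by Benjamini-Hochberg across the tested genes, at a threshold of 0.05. CPM are counts scaled to 1 M UMIs with TMM. Replicate pairs differed beyond counting error (chi-square per degree of freedom 4.82 to 23.6), so none was counted as a copy.

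The naming rule took Acsf3, up to 12 of the largest rises and of the largest falls at a mean of 5 CPM or more, called members of 51 gene lists (or up to 2 uncalled), the clock genes and the 6 smallest departure p, from which values are printed for a part. A few items are not reported here. Members and lists were chosen with earlier results of these data known. Lists are described by counts and medians without a test. Alternatives were RLE, library size only, 2 filters, ZT0 libraries only, a replicate block, DESeq2 1.42.0, limma-voom (limma 3.58.1) and leaving out each library. In simulated counts of 10097 genes, sets of 50 were changed by each of 1.5, 2, 4 and 8 times, and the ZT0 test recovered 18%, 56%, 92% and 98% of them. It made 141 calls, of which 9 were false. Positions came from GENCODE M21 (10095 of 10097 identifiers found). Figures were drawn with matplotlib 3.10.9.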

Additional observations from a re-analysis of the deposited data

Results flagged for a closer look

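In 13 of 212 groups of 4 values examined at ZT0, 1 library stood farther from the other 3 than Dixon's 95% limit for a gap within the range allows, where chance gives about 1 in 20. Of these, 5 belong to sh-Acsf3 replicate 3: its total of 9.35 M UMIs against 1.64 to 2.58 M, its mitochondrial share of 24.9% against 18.2 to 18.6%, mt-Rnr1 at 61078 CPM against 15833 to 16199, Saa1, an acute-phase gene, at 247 CPM against 26.7 to 51.3, and Ciart at 0.563 CPM with no count in the others. In sh-Acsf3 replicate 1 the pancreas sum was 3574 CPM against 10.8 to 23.3, and Ctrb1 was 552 CPM against 0.567 to 1.47. Klf6 stood at 25.3 CPM in sh-Acsf3 replicate 2 against 11.9 to 13.2, and Cyp2c40 at 6.24 CPM in sh-Acsf3 replicate 4 against 0.979 to 1.47. In sh-Ctl, Mup9 was 309 CPM in replicate 4 against 6.69 to 13.2, Nr1d2 was 2.93 CPM in replicate 1 against 4.00 to 4.08, Saa1 was 31.8 CPM in replicate 1 against 22.1 to 23.4, and H2-M2 was 0.583 CPM in replicate 3 with no count in the others. For Ciart and H2-M2 the other 3 values were 0, so any count gives the full gap and the rate of 1 in 20 does not hold. In sh-Acsf3 replicate 3, 1 UMI was worth 0.113 CPM, against 0.366 to 0.567 CPM in the other sh-Acsf3 libraries. No cause was tested.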

How the results depend on the processing

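Of the 52 calls, all kept their sign in every alternative that gave a value, and 2 (Acsf3 and Ccl5) passed in all. With library size only 30 genes passed (27 higher, 3 lower), with limma-voom 26 (21 and 5), with no count filter and 23436 genes tested 244 (177 and 67), with ZT0 libraries alone 37 (35 and 2) and with DESeq2 56 (47 and 9). RLE size factors gave 52 and a minimum mean of 5 CPM gave 42. With no filter 67 genes departed from the other times, and 0 did in each other fit that held the other times. Leaving out single libraries gave 9 to 55 calls, 7 to 48 higher and 2 to 9 lower. Without sh-Acsf3 replicates 1 and 3 together, chosen after seeing the data, 27 passed (23 higher, 4 lower). The planned fit without the ZT0 library rich in pancreas RNA is that without sh-Acsf3 replicate 1, with 26 calls. Libraries of other times with high pancreas sums, such as sh-Acsf3 ZT21 replicate 2 at 10778 CPM, stayed in that fit. No fit left out all such libraries. The causes were not tested.

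Replicate numbers were not taken as pairs, since the labels tie them to no shared animal or batch and not every same-number correlation of deviations was clearly above 0: they were 0.0905, -0.0443, 0.246 and 0.262. In both groups replicates 3 and 4 correlated best with their own number, and so did sh-Acsf3 replicate 1. Sh-Ctl replicate 1 correlated best with sh-Acsf3 replicate 3 (0.110), sh-Ctl replicate 2 with sh-Acsf3 replicate 4 (0.176) and sh-Acsf3 replicate 2 with sh-Ctl replicate 4 (0.0964). With a replicate block 58 genes passed over all libraries (52 higher, 6 lower), 51 of them among the 52 calls. With ZT0 libraries alone the block gave 70 (58 and 12), 33 of them among the 52, against 27 of 37 without the block.

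Among uncalled genes, 10 of those described had a range of differences that crossed 0 on leaving out 1 library: -3.39 to 1.02 for Ciart at ZT0, -0.23 to 0.041 for Clock at ZT0, -0.60 to 0.056 for Cry2 at ZT0, -0.022 to 0.093 for Csnk1d at ZT0, -0.39 to 7.16 for Ctrb1 at ZT0, -0.17 to 0.80 for mt-Rnr1 at ZT0, -0.11 to 0.18 for Nfil3 at ZT0, -0.36 to 0.14 for Npas2 at ZT0, -2.01 to 0.036 for Nr1d1 at ZT0 and -0.40 to 0.32 for Per3 at ZT0. Without sh-Acsf3 replicates 1 and 3 together the sign turned to 0.10 for Clock at ZT0, 0.14 for Cry1 at ZT0, 0.016 for Cry2 at ZT0, -0.089 for Csnk1d at ZT0, -0.21 for Ctrb1 at ZT0, -0.15 for mt-Rnr1 at ZT0, 0.31 for Nr1d1 at ZT0 and -0.26 for Per3 at ZT0. With limma-voom it turned to 0.030 for Npas2 at ZT0. At these depths 1.5-fold changes were mostly missed on simulated counts, with 18% of them found.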
